A study of Mus musculus with 4 samples.

Results

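A set of 10 immediate early response genes was read across immune cells of the mouse spleen: Fos, Fosb, Jun, Junb, Jund, Atf3, Egr1, Nr4a1, Dusp1 and Ier2. They were taken by name, as 10 of the 31053 genes in the count tables, and all 10 were found by symbol. Each was described in every authors' annotated cell type and in each library. Spleens of C57BL/6 mice gave 4 droplet single-cell RNA libraries, 1 per group. The double knockout group carried a whole-body knockout of miR-146a together with a T cell conditional knockout of miR-155, and was aged 15 months. The miR-146a knockout group carried the whole-body knockout alone and was aged 15 months. The aged WT group was 15 months old and carried floxed miR155 alleles (miR155 fl/fl), as did the young WT group. Cells of 3 to 6 mice were pooled for every aged library. The sources used here state neither the age and pool size of the young mice nor the driver of the T cell deletion. Mature miRNAs are not read by these gene counts, so the genotypes were not checked here.

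Immediate early genes are transcribed within minutes of a stimulus, without new protein synthesis, when kinase cascades such as ERK, JNK and p38 activate factors already bound at their promoters. Fos, Fosb, Jun, Junb and Jund encode subunits of the dimeric transcription factor AP-1, which in lymphocytes and myeloid cells acts after antigen receptor, cytokine and stress signals. Atf3, Egr1 and Nr4a1 encode other inducible transcription factors, Dusp1 encodes a phosphatase that switches off MAP kinases, and Ier2 encodes a nuclear protein of the same early response. Preparing cells from tissue can itself induce these genes. Spleens here were disrupted mechanically, passed through a mesh and sorted as live CD45+ cells of low forward and side scatter, and the sources used here do not state how long each preparation took.

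Junb, Jund and Ier2 lie on chromosome 8 and the other members on 7 other chromosomes of mm10. Fos runs from 85473890 to 85477273 on chromosome 12 (+ strand), Fosb from 19302696 to 19310051 on chromosome 7 (- strand) and Jun from 95049034 to 95052222 on chromosome 4 (- strand). Dusp1 runs from 26505590 to 26562128 on chromosome 17 (- strand) and Nr4a1 from 101254269 to 101274795 on chromosome 15 (+ strand). These spans are from GENCODE, and the RefSeq starts used below lie well inside them for Dusp1 and Nr4a1. The 250 bases before the transcription start are shown for Fos, Fosb, Jun and Dusp1, because these 4 genes were at least 1.5-fold higher in aged WT than in young WT both in T cells and in B cells. The sequences are from RefSeq (GRCm38.p6), read 5′ to 3′ on the gene's strand. Capitals mark matches to TGACGT (the core of a cAMP response element), TGACGTCA (the full element, which contains the core) or GCGNGGGCG (the EGR site), searched on both strands.
Fos, chr12:85473640-85473889, + strand: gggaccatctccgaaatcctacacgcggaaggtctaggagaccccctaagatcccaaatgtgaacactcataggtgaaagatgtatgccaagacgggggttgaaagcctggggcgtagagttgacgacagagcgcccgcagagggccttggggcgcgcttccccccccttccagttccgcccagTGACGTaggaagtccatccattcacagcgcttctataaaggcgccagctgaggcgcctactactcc
Fosb, chr7:19310046-19310295, - strand: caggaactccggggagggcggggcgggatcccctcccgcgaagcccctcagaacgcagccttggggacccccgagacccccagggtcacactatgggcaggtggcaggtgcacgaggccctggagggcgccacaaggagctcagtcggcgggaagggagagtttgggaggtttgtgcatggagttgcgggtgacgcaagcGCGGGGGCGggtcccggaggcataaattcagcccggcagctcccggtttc
Jun, chr4:95052223-95052472, - strand: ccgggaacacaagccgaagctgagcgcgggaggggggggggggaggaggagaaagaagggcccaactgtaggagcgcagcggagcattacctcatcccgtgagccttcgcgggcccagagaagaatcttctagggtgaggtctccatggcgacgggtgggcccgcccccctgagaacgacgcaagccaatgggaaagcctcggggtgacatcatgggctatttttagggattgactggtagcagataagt
Dusp1, chr17:26508473-26508722, - strand: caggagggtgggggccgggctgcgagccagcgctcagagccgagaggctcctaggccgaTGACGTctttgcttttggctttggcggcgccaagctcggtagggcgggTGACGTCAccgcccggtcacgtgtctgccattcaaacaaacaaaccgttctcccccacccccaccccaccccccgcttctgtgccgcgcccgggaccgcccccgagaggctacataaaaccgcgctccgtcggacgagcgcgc
The Fos window held TGACGT starting 66 bases before the start, a match in 6.47% of all 32851 promoter windows of the same length. The Dusp1 window held the full TGACGTCA 143 bases before its start, found in 1.55% of the windows, and a further TGACGT at 191 bases. The Fosb window held an EGR site 50 bases before its start, found in 4.70% of the windows, and the Nr4a1 window held one at 60 bases. The Jun window held none of the motifs searched. Among the 8 genes with an entry in the promoter table, 3 held TGACGT, 2 held the EGR site, and none held the AP-1 site TGANTCA (in 6.75% of the windows) or a CArG box (in 1.47%). A match describes these letters only, and sites outside the 250 bases were not searched for. The Jund window ended at 70697738, before the GENCODE start of that gene at 70698949. Egr1 and Ier2 had no entry.

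The libraries held 7297 (double knockout), 5702 (miR-146a knockout), 6952 (aged WT) and 7626 (young WT) barcodes, of which the authors named the cell type for 24143 of 27577. Levels below are UMIs (distinct captured transcript molecules) of a gene per 1000000 UMIs of a type or class, written CPM, from 13843 to 16487 UMIs of the 10 genes per library in named cells. With 1 library per group there is no spread between mice, so no test was run. Intervals are 95% and cover counting error only. A gene was called higher or lower between a pair of libraries when its ratio was at least 1.5-fold, among genes with at least 20 UMIs over both. Types were read in libraries with at least 50 cells of the type. The 4 T cell and 4 B cell markers were all present in their classes, at sums of 3552 to 4520 and 6876 to 8278 CPM. GC Centrocyte sums also carried T cell markers, at 321 CPM (double knockout), 250 CPM (miR-146a knockout) and 1082 CPM (aged WT), and plasma cell markers, at 2195, 2310 and 1304 CPM, where other B cell types had 521 to 1025 CPM. Of the 27160 distinct barcode sequences, 416 occurred in more than 1 library.

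Among the AP-1 subunits, Jund and Junb made up most of the molecules counted. Together they held 74.3% (double knockout), 76.7% (miR-146a knockout), 70.9% (aged WT) and 70.7% (young WT) of the 10 genes' UMIs in T cells, and 43.7% to 59.2% in myeloid cells. These are shares of molecules counted from 1 end, not scaled to length. Jund, a subunit that is present in resting cells, was highest in Trans B cells or Mem Cd4 cells in each library. In Trans B cells it stood at 800 CPM (737 to 868) in the double knockout, 792 CPM (725 to 865) in the miR-146a knockout, 759 CPM (695 to 827) in aged WT and 647 CPM (594 to 703) in young WT. Mem Cd4 cells had 747, 804, 611 and 520 CPM in the same libraries, and the intervals of these 2 types overlapped in both knockout libraries. Granulocytes (Gran) had the lowest Jund level of any type in the knockout libraries, at 57.7 CPM in the double knockout and 43.3 CPM in the miR-146a knockout. The WT libraries held too few granulocytes to be ranked. The 37 of young WT had 601 CPM (389 to 888), and the 16 of aged WT had 105 CPM (28.5 to 268). Junb, an AP-1 subunit with a role in T helper differentiation, was highest among T cell types in Mem Cd4 cells. Its level there was 587 CPM (548 to 629) in the double knockout, 617 CPM (576 to 660) in the miR-146a knockout, 478 CPM (436 to 523) in aged WT and 203 CPM (172 to 237) in young WT. The young library stood apart, with an interval that none of the 3 aged libraries overlapped.

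**Figure D1:**
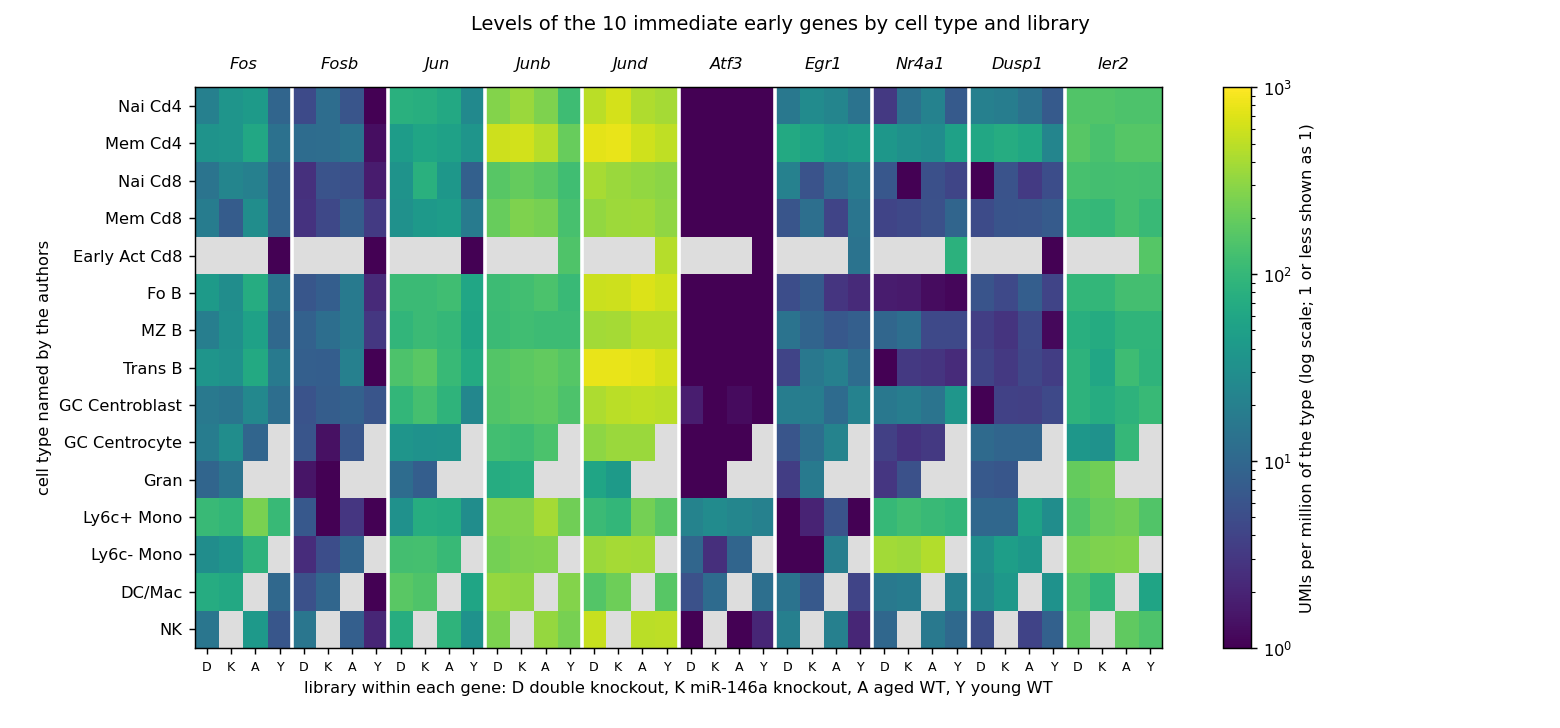
UMIs of each of the 10 genes per 1000000 UMIs (colour, log scale) in each annotated cell type (rows) and library (columns D, K, A and Y for double knockout, miR-146a knockout, aged WT and young WT). Grey marks types with fewer than 50 cells. Jund and Junb are detected in every type shown, while Atf3 is at 0 in all T cell rows and Nr4a1 is brightest in the Ly6c- Mono row.

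Fos, Fosb and Jun had more selective patterns. Fos, the partner that gives AP-1 its strongest binding as a dimer with Jun, was highest in Ly6c+ Mono cells in every library. It stood there at 108 CPM (83.7 to 138) in the double knockout, 98.0 CPM (72.5 to 130) in the miR-146a knockout, 247 CPM (197 to 306) in aged WT and 105 CPM (67.7 to 154) in young WT. Only the aged WT monocytes stood apart from the other libraries. The next types were DC/Mac in both knockout libraries, at 71.3 and 65.2 CPM, Ly6c- Mono in aged WT, at 86.2 CPM, and Trans B in young WT, at 17.4 CPM. One cell held 25 of the 52 Fos UMIs of the DC/Mac cells in the double knockout. Jun, the founding AP-1 subunit, was highest in DC/Mac or Trans B cells of the knockout libraries in Fo B cells of aged WT and in Trans B cells of young WT. DC/Mac cells had 169 CPM (140 to 201) in the double knockout, 151 CPM (124 to 182) in the miR-146a knockout and 58.4 CPM (38.8 to 84.4) in young WT. The 44 such cells of aged WT, too few to be ranked, had 217 CPM (161 to 287), above the 122 CPM of its Fo B cells. Granulocytes had the lowest Jun level of the knockout libraries, at 11.4 CPM in the double knockout and 7.88 CPM in the miR-146a knockout. Fosb, a second Fos-family subunit, was a low signal of at most 20.4 CPM in any type with 50 or more cells, reached in Trans B cells of aged WT. The 44 DC/Mac cells of aged WT had 48.8 CPM of Fosb (24.4 to 87.3) from 11 UMIs.

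Nr4a1 and Atf3 had their highest levels in monocytes. Nr4a1, the nuclear receptor needed for Ly6c- monocytes in mice, was highest in Ly6c- Mono cells. Its level was 387 CPM (329 to 452) in the double knockout, 367 CPM (309 to 432) in the miR-146a knockout and 450 CPM (331 to 599) in aged WT, and the 27 such cells of young WT gave 310 CPM (194 to 469). These intervals overlapped across the 4 libraries. Ly6c+ Mono cells came next in every library with 96.2 to 120 CPM, a range in which all intervals overlapped. The 70 Early Act Cd8 cells of young WT had 83.8 CPM, and Mem Cd4 cells had 29.1 to 52.0 CPM over the 4 libraries. Fo B cells had 1.13 to 1.69 CPM from 3 to 5 UMIs, at or near the level of a count of 3. Atf3, a stress-induced repressor of inflammatory genes, was at 0 UMIs in all T cells of the 4 libraries, which allows at most 0.376 to 0.760 CPM (3 counts). In Ly6c+ Mono cells it had 21.7 CPM (11.6 to 37.1) in the double knockout, 28.0 CPM (15.3 to 47.0) in the miR-146a knockout, 23.6 CPM (10.2 to 46.4) in aged WT and 20.9 CPM (6.79 to 48.8) in young WT. The 4 values did not differ beyond their counting intervals.

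Among lymphocytes, Egr1 and Dusp1 were highest in memory CD4 T cells (Mem Cd4) in each library. Egr1, a zinc finger factor induced by antigen receptor signalling, had 67.3 CPM (54.4 to 82.4) in Mem Cd4 cells of the double knockout, 55.1 CPM (43.2 to 69.1) of the miR-146a knockout, 42.1 CPM (30.4 to 57.0) of aged WT and 46.8 CPM (32.8 to 64.8) of young WT. Neighbouring libraries overlapped in this order. Dusp1 had 63.0 CPM (50.5 to 77.6) in Mem Cd4 cells of the double knockout, 71.4 CPM (57.9 to 87.2) of the miR-146a knockout, 63.2 CPM (48.6 to 80.9) of aged WT and 23.4 CPM (13.9 to 37.0) of young WT. The 3 aged libraries overlapped and the young one lay below them. Ier2 had its highest levels in Ly6c- Mono cells, at 238, 260 and 268 CPM in the double knockout, miR-146a knockout and aged WT libraries. Granulocytes came second for Ier2 in both knockout libraries, at 196 CPM (177 to 216) in the double knockout and 224 CPM (199 to 251) in the miR-146a knockout.

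**Figure D2:**
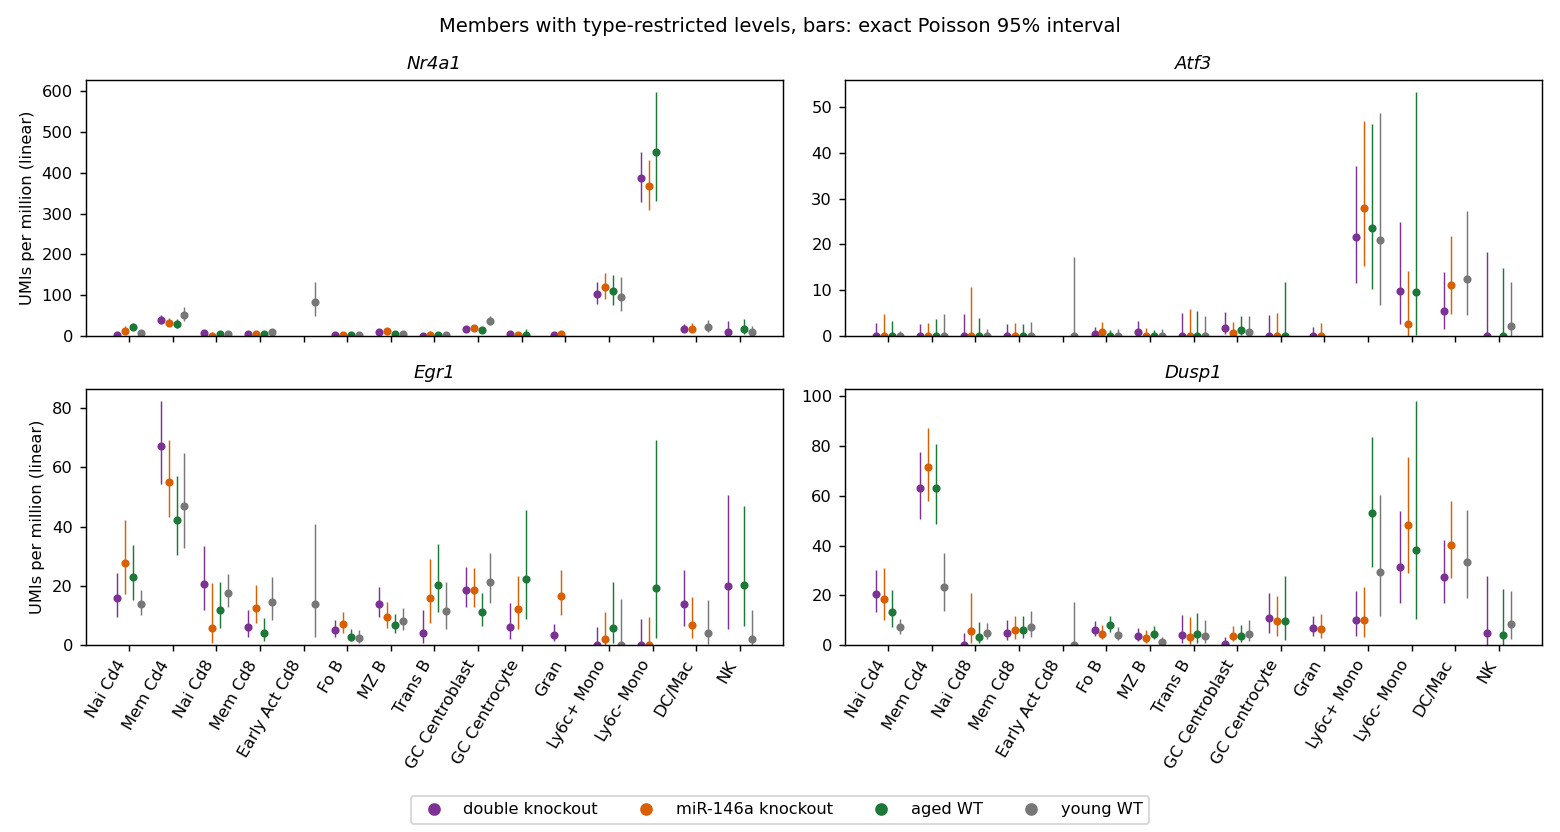
UMIs per 1000000 of Nr4a1, Atf3, Egr1 and Dusp1 by annotated cell type, with a point and a 95% Poisson bar for each library that held at least 50 cells of the type. Nr4a1 peaks in Ly6c- Mono cells and Atf3 in Ly6c+ Mono cells, while Egr1 and Dusp1 reach their T cell maximum in Mem Cd4 cells.

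In aged WT against young WT, which addresses what differs with age, Fos and Jun were higher in all 3 classes, and Jund was nearly level. Among T cells, Fos had 37.9 CPM (173 UMIs) in aged WT and 9.27 CPM (74 UMIs) in young WT, a ratio of 4.06 (3.10 to 5.45). Fosb had 8.33 CPM in aged WT and 1.38 CPM in young WT, a ratio of 5.69 (3.03 to 13.1) from 38 and 11 UMIs. Jun had 51.5 CPM in aged WT and 19.9 CPM in young WT, a ratio of 2.58 (2.11 to 3.18). Junb had 284 CPM in aged WT and 129 CPM in young WT, a ratio of 2.20 (2.02 to 2.39). Dusp1, with 20.4 CPM in aged WT and 7.89 CPM in young WT, had a ratio of 2.57 (1.86 to 3.62). These 5 genes thus differed by more than their counting intervals. Jund, at 434 CPM in aged WT and 369 CPM in young WT, had a ratio of 1.18 (1.11 to 1.25), while Ier2 had 1.05 (0.947 to 1.15) and Egr1 1.05 (0.790 to 1.37). Of the 9 members measured in T cells, 5 were called higher and none lower, where 14.0% of all 10145 genes tested were called higher and 3.21% lower. Mem Cd4 cells were 512 of 1755 T cells in aged WT and 314 of 2904 in young WT. Both libraries were then set to the young library's mix of T cell types other than Early Act Cd8. The log2 ratio of Fos was 1.90 against 2.02, and that of Dusp1 was 0.79 against 1.36.

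Among B cells, Fos had 53.6 CPM (461 UMIs) in aged WT and 12.4 CPM (95 UMIs) in young WT, a ratio of 4.29 (3.46 to 5.45). Fosb had 15.3 CPM in aged WT and 3.13 CPM in young WT (ratio 4.74, 3.16 to 7.92), and Jun 104 CPM and 52.4 CPM in the same libraries (1.97, 1.75 to 2.23). Junb stayed within the threshold, with 143 CPM in aged WT and 121 CPM in young WT. Dusp1 was called higher from few counts, 50 UMIs in aged WT and 24 UMIs in young WT (1.82, 1.12 to 3.16). Nr4a1 went the other way, with 5.0 CPM in aged WT and 9.0 CPM in young WT, 1.79-fold lower (1.21 to 2.70). GC Centroblast cells held 23 of its 43 UMIs in aged WT and 49 of its 69 UMIs in young WT. MZ B cells had a ratio of 0.98 (0.416 to 2.37). The lower call of Nr4a1 in B cells was lost when each cell was weighted alike, at a log2 ratio of -0.44 against -0.84. Of 9 members measured in B cells, 4 were called higher and 1 lower, where 3.88% of 10332 genes were called higher and 3.55% lower.

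Among myeloid cells, Fos had 153 CPM (125 to 184) in aged WT and 39.7 CPM (27.3 to 55.8) in young WT, a ratio of 3.76 (2.58 to 5.86). Jun had 129 CPM in aged WT and 53.0 CPM in young WT (2.40, 1.68 to 3.56). Nr4a1 (1.89, 1.34 to 2.71) and Ier2 (1.72, 1.32 to 2.26) were also called higher. Of 8 members measured, 4 were called higher and none lower, where 8.50% of 6648 genes were called higher and 11.7% lower. These sums rest on 191 aged WT and 223 young WT cells in different mixes of types. On the young library's mix of types other than granulocytes, the log2 ratio of Nr4a1 was 0.32 against 0.92, below the threshold. That of Fos was 1.57 against 1.91. With each cell weighted alike, that of Ier2 was 0.49 against 0.78, also below the threshold.

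**Figure D3:**
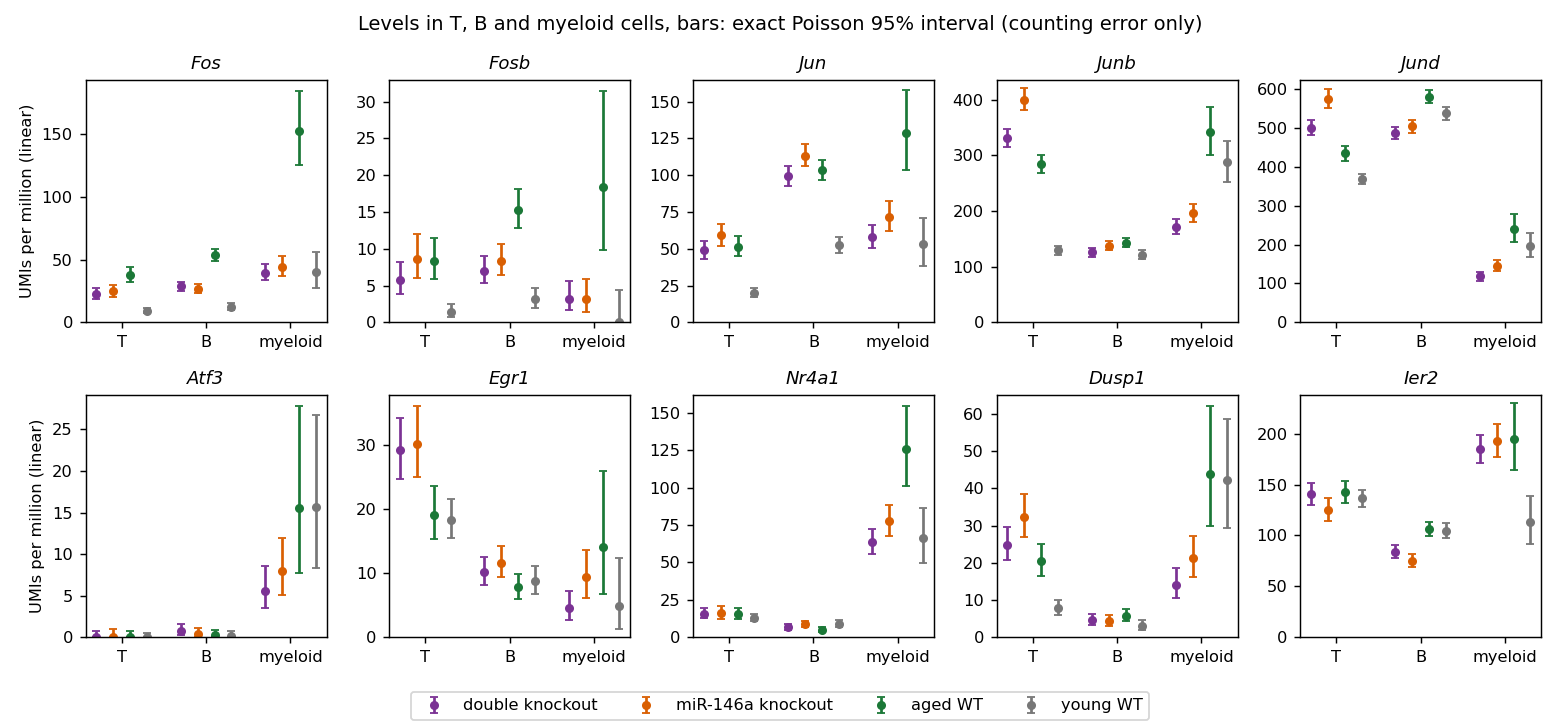
UMIs per 1000000 of the 10 genes in T, B and myeloid cells of the 4 libraries, with 95% Poisson intervals as bars. Fos is highest in aged WT in each class, at 37.9, 53.6 and 153 CPM, while Jund and Ier2 differ little between aged WT and young WT lymphocytes.

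Type by type, Fos was higher in aged WT wherever it could be measured. At least 50 cells in both WT libraries were available for 10 types, and Fos reached 20 UMIs in 9 of them. It was called higher in aged WT in all 9, with ratios between 1.98 (GC Centroblast) and 4.99 (Fo B) and a median of 3.60. Follicular B cells (Fo B) had 71.3 CPM (62.3 to 81.3) in aged WT and 14.0 CPM (9.85 to 19.3) in young WT. Jun was called higher in 9 of 10 types, from 1.41 in Mem Cd4 cells, the exception, to 4.49 in Nai Cd8 cells. Junb was called higher in 4 of 10, namely Nai Cd4 (2.24), Mem Cd4 (2.34), Mem Cd8 (1.83) and Ly6c+ Mono (1.75). Dusp1 was called higher in each of the 4 types where it was measured, with 1.67 to 2.60, but its interval excluded 1 in Mem Cd4 cells only. Jund and Ier2 were called in none of 10 types, with ratios of 0.973 to 1.36 and 0.814 to 1.43. Across types, 4.55% to 16.6% of all genes tested were called higher and 4.06% to 10.6% lower. Egr1 was called lower in Mem Cd8 (0.317, 0.0932 to 0.754) and GC Centroblast (0.526, 0.269 to 0.966) cells. It was called higher in Nai Cd4 (1.69, 0.990 to 2.75) and Trans B (1.71, 0.725 to 4.42) cells, with intervals that included 1. Nr4a1 was called lower in Mem Cd4 (0.564), GC Centroblast (0.385) and Mem Cd8 (0.595) cells, the last with an interval (0.203 to 1.53) that included 1. Its higher call in Nai Cd4 cells (3.01) rested on 24 UMIs in each library, of which a single aged WT cell held 16.

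Heat shock and free RNA were read beside this difference. Hspa1a, the inducible heat shock protein gene that tissue handling also induces, had 13.2 CPM in aged WT and 2.00 CPM in young WT T cells, 3.60 and 0.652 CPM in their B cells, and 53.7 and 7.22 CPM in their myeloid cells. It thus moved in the same direction as Fos. Dnajb1, another heat shock gene, had 59.7 CPM in aged WT and 59.1 CPM in young WT over all annotated cells. Of the 15 heat shock genes listed, 4 of 14 measured were called higher in T cells, as were 2 of 13 in B cells and 2 of 11 in myeloid cells, with none lower. Of all genes, 14.0%, 3.88% and 8.50% were called higher in these classes. Without the cells that held an Hspa1a or Hspa1b UMI, the log2 ratio of Fos was 1.96 for T cells, 2.10 for B cells and 1.93 for myeloid cells. At the levels above few T and B cells hold such a UMI, so this setting could move their ratios little. The part of cell preparation in the Fos difference was not tested, and age, pool and preparation cannot be told apart with 1 library each. The 6 monocyte markers other than Nr4a1, which include genes that some T cells express, summed to 543 CPM in aged WT and 330 CPM in young WT T cells, and to 45.2 and 53.3 CPM in their B cells. They summed to 43272 CPM in aged WT Ly6c+ Mono cells. The part of free RNA in the Fos difference was not tested. Mitochondrial genes took 3.26% of UMIs in aged WT and 2.99% in young WT.

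**Figure D4:**
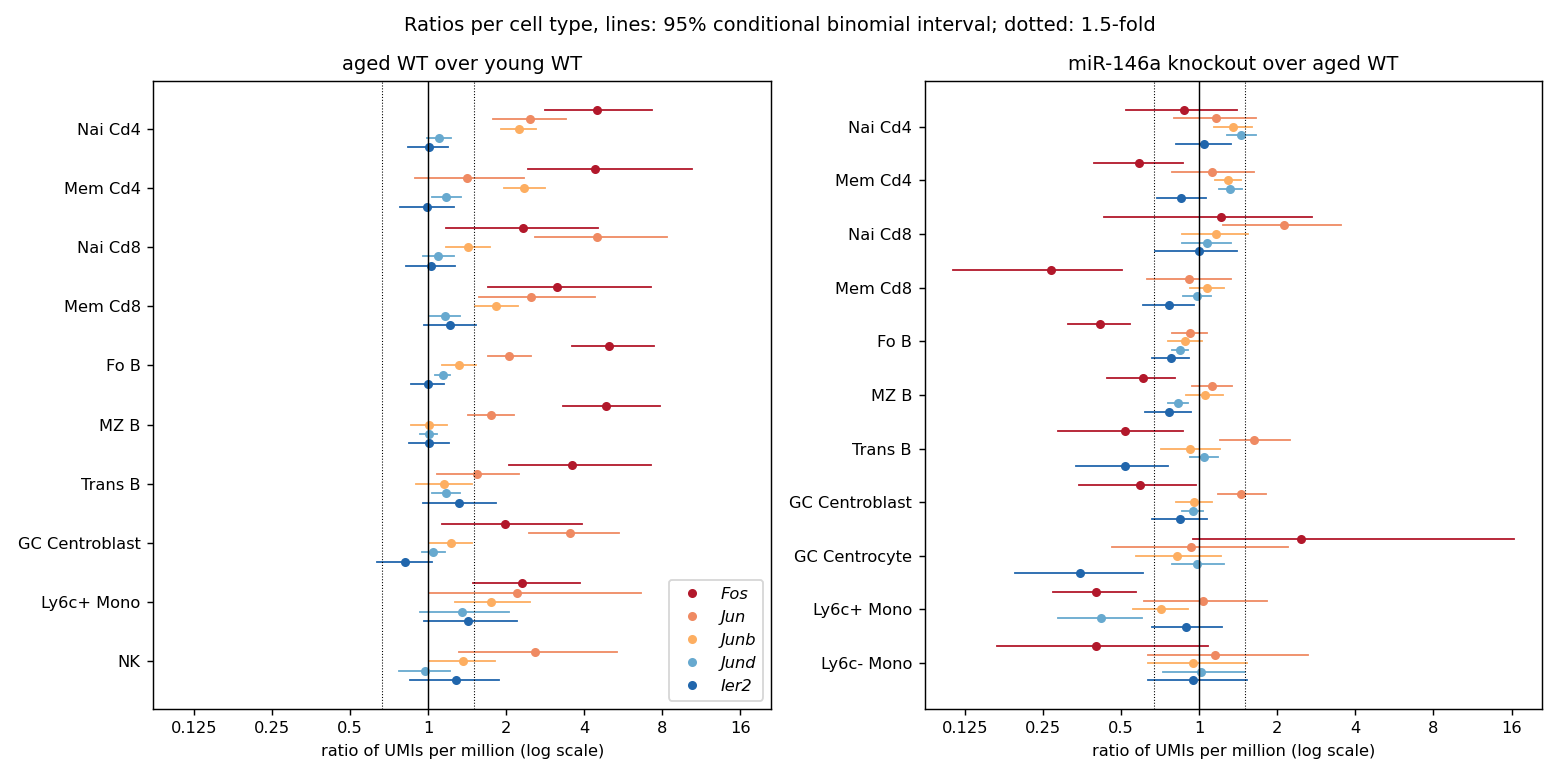
Ratios of Fos, Jun, Junb, Jund and Ier2 by annotated type with 95% counting intervals, aged WT over young WT on the left and miR-146a knockout over aged WT on the right (log axis, dotted lines at 1.5-fold). Fos lies above 1.5-fold in every measured type on the left and below 1 in most types on the right, while Jund stays within the dotted lines in every lymphocyte type.

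The miR-146a knockout was set against aged WT to address the loss of this inhibitor of NF-kB signalling. Fos was lower in all 3 classes, and Egr1 and Dusp1 were higher in T cells. The aged WT library, which had the highest Fos level in each class, is shared with the age comparison, so the lower Fos here and the higher Fos there are not independent. Fos had 24.6 CPM (19.9 to 30.0) in miR-146a knockout and 37.9 CPM (32.5 to 44.0) in aged WT T cells, 1.54-fold lower (1.20 to 2.00). Egr1 had 30.1 CPM (119 UMIs) in miR-146a knockout and 19.1 CPM (87 UMIs) in aged WT T cells, a ratio of 1.58 (1.19 to 2.11). Dusp1 had 32.4 CPM and 20.4 CPM in the same libraries, a ratio of 1.59 (1.21 to 2.10). Junb (1.41, 1.31 to 1.52) and Jund (1.32, 1.25 to 1.41) had intervals above 1 but missed the threshold. Of 9 members measured, 2 were called higher and 1 lower in T cells, where 9.82% of 10026 genes were called higher and 5.18% lower. The T cell types other than Early Act Cd8 were then mixed as in aged WT. The log2 ratios of Egr1 and Dusp1 were 0.37 and 0.23, against 0.66 and 0.67, both below the threshold. That of Fos was -0.64 against -0.62.

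Among B cells, Fos had 26.8 CPM (23.3 to 30.7) in miR-146a knockout and 53.6 CPM (48.8 to 58.7) in aged WT, 1.99-fold lower (1.69 to 2.37). Fosb had 8.38 CPM and 15.3 CPM in the same libraries, 1.82-fold lower. Jun did not follow them, with 113 CPM in miR-146a knockout and 104 CPM in aged WT. Nr4a1 was called higher, with 8.76 CPM (68 UMIs) in miR-146a knockout and 5.0 CPM (43 UMIs) in aged WT (1.74, 1.18 to 2.63). Of 9 members, 1 was called higher and 2 lower, where 7.64% of 10481 genes were called higher and 3.88% lower. Among myeloid cells, Fos had 44.4 CPM (37.0 to 52.8) in miR-146a knockout and 153 CPM (125 to 184) in aged WT, 3.44-fold lower (2.64 to 4.48). Here 9 of 10 members were called lower and none higher, with Ier2 the exception at 0.984, but 33.7% of all 8323 genes tested were also called lower and 8.49% higher. Granulocytes, whose Fos level was 9.45 CPM in the double knockout and 14.2 CPM in the miR-146a knockout, were 293 of 715 myeloid cells in the miR-146a knockout and 16 of 191 in aged WT. Granulocytes, too few in aged WT, were left out of both libraries when types were mixed as in aged WT. In that setting 4 members were called lower, and the log2 ratio of Fos was -1.03 against -1.78.

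By type, Fos was called lower in the miR-146a knockout in 8 of 11 types and higher in 1. The ratios ranged over the lower types between 0.269 (Mem Cd8) and 0.605 (MZ B), and the monocyte types had 0.400 (0.273 to 0.571, Ly6c+ Mono) and 0.399 (0.167 to 1.08, Ly6c- Mono). Naive T cells were not called, with 0.876 (0.522 to 1.40) in Nai Cd4 and 1.21 (0.430 to 2.72) in Nai Cd8 cells, intervals that include the ratios of several types called lower. The higher call, in GC Centrocyte cells, compared 22 UMIs in the miR-146a knockout with 3 UMIs in aged WT, and its interval (0.945 to 16.4) included 1. Jun was called higher in Nai Cd8 (2.12) and Trans B (1.63) cells and lower in none, and Junb was called in none of 11 types. Egr1 was called higher in 3 of 7 types measured, Mem Cd8 (2.77, 1.15 to 9.44), Fo B (2.34, 1.03 to 6.25) and GC Centroblast (1.63, 0.920 to 3.15), the last with an interval that included 1. Ly6c+ Mono cells had 10.0 CPM of Dusp1 in the miR-146a knockout and 53.0 CPM in aged WT (0.215). Over the 11 types, 4.06% to 14.9% of genes were called higher and 6.88% to 14.8% lower.

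Other cells' RNA differed between these libraries too. Haemoglobin and other red cell genes (8 listed) summed to 756 CPM in miR-146a knockout and 37.7 CPM in aged WT B cells, and the 4 neutrophil markers to 582 and 15.2 CPM. In granulocytes of the miR-146a knockout the neutrophil markers summed to 338830 CPM, while no member exceeded 224 CPM there. The part of this free RNA in the members' ratios was not tested. Hspa1a had 2.06 CPM in miR-146a knockout and 3.60 CPM in aged WT B cells, again in the direction of Fos. Their myeloid cells had 8.67 and 53.7 CPM, also in that direction, where 33.7% of all genes tested were called lower. Over all annotated cells the 15 heat shock genes listed summed to 3887 CPM in miR-146a knockout and 4428 CPM in aged WT. Without cells holding an Hspa1a or Hspa1b UMI the log2 ratio of Fos was -1.05 among B cells and -2.01 among myeloid cells. Few B cells hold such a UMI, so here too their ratio could move little.

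The double knockout was set against the miR-146a knockout to address the added deletion of miR-155 from T cells. Among T cells, the cells that carry the deletion, no member was called in either direction, where 3.57% of 10101 genes were called higher and 7.48% lower. Ratios ran from 0.671 (Fosb) to 1.12 (Ier2). Fos had 22.6 CPM (18.6 to 27.1) in the double knockout and 24.6 CPM (19.9 to 30.0) in the miR-146a knockout, a ratio of 0.918 (0.695 to 1.22). Junb had 331 CPM and 400 CPM in the same libraries, a ratio of 0.827 (0.772 to 0.887), and Dusp1 24.8 CPM and 32.4 CPM, a ratio of 0.764 (0.592 to 0.985). Their intervals lay below 1 without reaching the threshold. No member was called among B cells either, where 2.70% of 10537 genes were called higher and 3.21% lower, and Fos had a ratio of 1.07 (0.883 to 1.29).

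Among myeloid cells, Egr1 was the 1 member of 10 called lower and none was higher, where 9.29% of 9420 genes were called lower and 3.52% higher. Egr1 had 4.53 CPM (17 UMIs) in the double knockout and 9.37 CPM (27 UMIs) in the miR-146a knockout (0.494, 0.248 to 0.921). This came from granulocytes, with 7 UMIs in the double knockout and 21 UMIs in the miR-146a knockout. DC/Mac cells went the other way from few counts, with 10 UMIs in the double knockout and 5 UMIs in the miR-146a knockout. By type, Fos was called lower in 4 of the 12 types measured, Nai Cd4 (0.558), MZ B (0.618), GC Centrocyte (0.625) and Gran (0.665), the last 2 with intervals that included 1, and higher in Mem Cd8 cells (2.29). Jun was lower in Nai Cd8 (0.431) and Ly6c+ Mono (0.461) cells. Over the 13 types, 4.98% to 10.1% of genes were called higher and 3.95% to 11.8% lower. Against aged WT, the double knockout had 1 member called higher (Egr1) and 1 lower (Fos) in T cells, where 5.30% of genes were called higher and 4.47% lower. In B cells none was called higher and 2 lower (Fos, Fosb), beside 6.88% and 3.62% of genes. In myeloid cells none was called higher and 9 lower, beside 8.25% and 43.4% of genes.

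The rest of the early response moved unevenly. Of 32 other immediate early genes, 30 were measured in T cells of aged WT over young WT, and 15 were called higher and none lower, with a median log2 ratio of 0.62 against 0.11 over all genes. The ratio was highest for Trib1, a pseudokinase gene, at 4.19, and lowest for Klf2, a quiescence factor gene, at 0.868. In B cells 7 of 26 were called higher, led by Socs3, the cytokine signalling inhibitor gene, at 4.22, with a median of 0.10 against -0.02. In myeloid cells 5 of 22 were called higher, with Socs3 again highest at 2.35. The shares of all genes called higher in aged WT over young WT were 14.0% in T, 3.88% in B and 8.50% in myeloid cells. In the miR-146a knockout over aged WT, 9 of 30 were called higher and 2 lower in T cells, from Nr4a3 (2.48), a relative of Nr4a1, to Myc (0.575). In B cells 1 of 27 was higher and 3 lower, and in myeloid cells 2 of 25 were higher and 15 lower, with a median of -0.67 against -0.38 over all genes. The shares of all genes called higher and lower were 9.82% and 5.18% in T cells and 7.64% and 3.88% in B cells. In myeloid cells they were 8.49% and 33.7%. In the double knockout over the miR-146a knockout, T cells had 1 of 30 higher and 5 lower, and B cells 1 of 27 higher and 2 lower. Of all genes, 3.57% were higher and 7.48% lower in these T cells, and 2.70% and 3.21% in these B cells.

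Possible AP-1 partners (19 listed) were read next. Of all genes, 14.0% were called higher and 3.21% lower in T cells of aged WT over young WT, and 3.88% and 3.55% in B cells. In miR-146a knockout over aged WT these shares were 9.82% and 5.18% in T cells, and 7.64% and 3.88% in B cells. In aged WT over young WT T cells 5 of 14 were called higher and none lower, led by Maf at 6.63, a factor of follicular helper and regulatory T cells, with 109 CPM in aged WT and 16.4 CPM in young WT. In B cells 1 of 13 was called higher. In miR-146a knockout over aged WT T cells 4 of 14 were higher and 2 lower, from Batf (2.24), an AP-1 partner of Jun proteins, to Atf5 (0.482), and in B cells none of 13 was called. The kinases and factors upstream (24 listed) were called in few cases, 3 higher and 1 lower of 22 in T cells and none of 22 in B cells of aged WT over young WT. In miR-146a knockout over aged WT 2 of 22 were higher in T cells, led by Crem, a cAMP-responsive factor, at 1.86, and none in B cells. Both T cell counts of higher upstream genes were near the share of all genes. Other phosphatases and feedback inhibitors (13 listed) included Spry1, an ERK pathway inhibitor, at 3.58 in aged WT over young WT T cells, where 3 of 10 were higher. In myeloid cells of the miR-146a knockout 6 of 9 were lower, down to 0.278 for the ERK phosphatase gene Dusp6, beside the 33.7% of all genes lower there.

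The share of cells with a Fos UMI followed the level of Fos, as most such cells held 1 UMI. After each cell was thinned to 1000 UMIs, Fos was found in 2.48% (1.85 to 3.24) of T cells in the double knockout, 3.04% (2.22 to 4.06) in the miR-146a knockout, 4.54% (3.61 to 5.63) in aged WT and 0.868% (0.562 to 1.28) in young WT. Unthinned, these shares were 4.99%, 5.35%, 8.15% and 1.24%. The young library lay below the other 3, and the aged WT interval overlapped that of the miR-146a knockout only. In B cells the thinned shares were 3.34% (2.76 to 4.01), 2.45% (1.88 to 3.15), 5.52% (4.81 to 6.31) and 1.34% (0.974 to 1.79) in the double knockout, miR-146a knockout, aged WT and young WT libraries, and unthinned 6.38%, 6.59%, 10.3% and 2.47%. Thinning left out 15 to 66 T cells and 7 to 28 B cells per library. No cell type here is known to lack Fos, so no background share of cells was available for it.

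**Figure D5:**
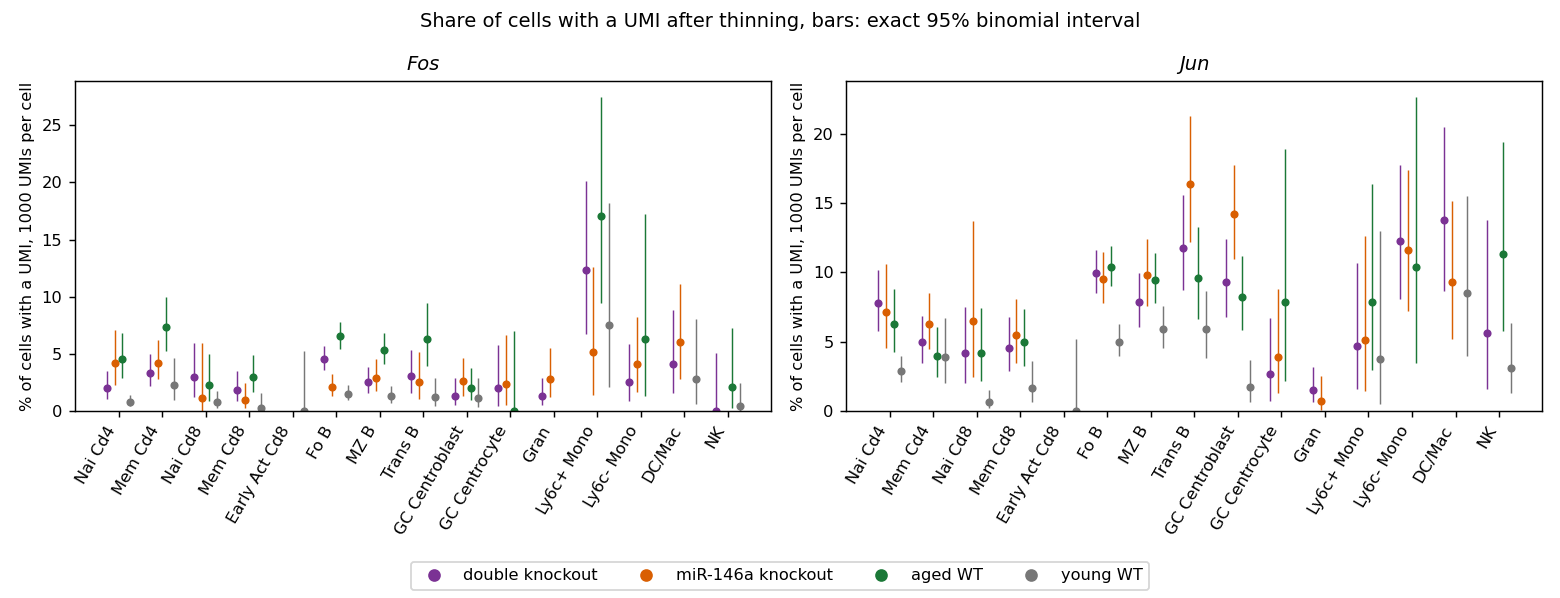
Percent of cells with at least 1 UMI of Fos and of Jun after thinning to 1000 UMIs per cell, by annotated cell type and library, with exact 95% Clopper-Pearson bars (types with at least 50 cells). The share with Fos is highest in aged WT and lowest in young WT in Fo B, MZ B and Mem Cd4 cells.

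Among T cells 104 (double knockout), 81 (miR-146a knockout), 143 (aged WT) and 36 (young WT) cells held Fos, and the 10 cells with most Fos held 17.5%, 24.7%, 16.8% and 64.9% of its UMIs in these libraries. In the young library 1 cell had 12 UMIs. Junb was found in 27.3% of T cells in the double knockout, 32.4% in the miR-146a knockout, 25.2% in aged WT and 11.4% in young WT, all thinned. T cells with 3 or more of the 10 genes made up 6.07%, 6.63%, 4.54% and 1.67% in the same libraries. Among Mem Cd4 cells these were 10.1%, 10.5%, 8.32% and 5.21%. Cells with Fos were compared with cells without it. Among B cells with Fos, Jun was found in 15.3% (9.18 to 23.4) in the double knockout, 11.7% (4.82 to 22.6) in the miR-146a knockout, 10.2% (6.45 to 15.2) in aged WT and 15.9% (6.64 to 30.1) in young WT. Among B cells without Fos these shares were 9.04%, 10.9%, 9.72% and 4.84% in the same libraries, so the intervals lay apart in young WT alone. Among T cells with Fos, Ier2 was found in 23.5% (12.8 to 37.5), 11.4% (3.79 to 24.6), 12.7% (6.24 to 22.0) and 44.0% (24.4 to 65.1) in the 4 libraries in this order, from 51, 44, 79 and 25 cells. Among T cells without Fos the shares of Ier2 were 13.0%, 11.0%, 11.8% and 11.4%, and again the intervals lay apart in young WT alone. Other members differed. Egr1 lay apart in double knockout T cells, at 9.8% (3.26 to 21.4) with Fos and 2.14% (1.55 to 2.87) without. In miR-146a knockout B cells Fosb did, at 6.67% (1.85 to 16.2) and 0.713% (0.416 to 1.14). Nr4a1 did there too, at 5% (1.04 to 13.9) and 0.377% (0.173 to 0.715). These rest on 3 to 5 cells with both genes. Egr1 and Nr4a1 also lay apart in young WT T cells. Jund did in young WT B cells, at 61.4% (45.5 to 75.6) with Fos and 40% (38.4 to 41.8) without, from 27 cells with both genes. Most other intervals overlapped.

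The genes with the most similar pattern were sought over 51 sums of a type in a library (15 types), by Pearson correlation of log2(CPM + 10) among 5165 genes. Sums of 1 library share its depth and preparation, so r is a description. Atf3 had the closest neighbours, Ptpro (r = 0.96), Tgfbi (0.95) and Ifi204 (0.93). Jund was nearest to Btg1, Ddx5 and Matr3 (0.91 each), and Nr4a1 to Ldlrad3 (0.88), Ace (0.87) and Rnf149 (0.85). Junb was nearest to Nucb1 and Itm2c (0.82 each) and Ei24 (0.81), and Dusp1 to Ctsb (0.83), Asap1 (0.82) and Fam129a (0.80). Fos had weaker neighbours, Soat1 (0.71), Wfdc17 (0.70) and Ninj1 (0.69), as did Egr1, with Izumo1r, Cbx6 and Smco4 (0.74 each), and Jun, with Aim2 (0.77), Dok1 (0.71) and Inpp5d (0.70). For Fosb the highest were AC149090.1 (0.62), Cirbp (0.60) and Copg1 (0.59), and for Ier2 Flna (0.78), Xdh (0.76) and Klf6 (0.73). The mean of the 10 genes was nearest to Stat3 (0.82), Nfkb1 (0.82) and Ctsb (0.80). Between members r was highest for Junb with Dusp1 (0.73) and Atf3 with Nr4a1 (0.65), 0.51 for Fos with Jun, and lowest for Jund with Atf3 (-0.52).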

How the data were processed

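RNA of sorted CD45+ splenocytes was measured by 10x Genomics droplet sequencing in 4 libraries, 1 per group; 3' and 5' chemistry are both named in the labels, and which was used could not be settled. The authors deposited raw UMI counts per gene and barcode, made with Cell Ranger 3.0.0 on mm10 according to the submitters' processing notes, and a table of cell type names (unit: other) for 24143 barcodes; how the names were assigned is not stated in the sources used here. Barcodes without a name, and 550 cells named T/B dbl, stayed out of the comparisons, and no further doublet call was made. Annotated cells held 501 to 9001 UMIs, with medians of 2054 to 2649.5 per library.

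UMIs were summed per type and per class (T, B, myeloid) and scaled to CPM. Ratios have 1 count added to each sum and a conditional binomial interval; levels have exact Poisson intervals, and shares of cells exact Clopper-Pearson intervals, after thinning with a fixed seed (7). Sums over a class also move with its mix of types, and more cells with a transcript cannot be told apart from more transcript per cell in such a sum. A gene at 0 was given the limit of 3 counts. Group membership followed the labels. The 10 genes and the gene lists were chosen with earlier results of these data known. All 10 genes are named; similar genes are the 3 with the highest r among genes of at least 20 CPM, and of each list the members with the highest and lowest ratio may be named. The types named for a gene were chosen after their values were seen. Gene positions are from GENCODE vM21. Alternatives were a mean over cells, TMM scaling (edgeR 4.0.16, R 4.3.3), cells of 1000 to 5000 UMIs, one mix of types, other minimum counts, a denominator without abundant gene families and, added after seeing the data, cells without Hspa1a or Hspa1b. One mix of types left out types with few cells in either library, namely granulocytes and Early Act Cd8 cells in comparisons with aged WT. Calls were tried on simulated Poisson counts with planted changes. Such counts hold no spread between cells, mice or preparations, so they give no error rate for the calls here. Work was done in Python 3.11.15 with numpy 2.4.6, scipy 1.17.1, pandas 2.3.3 and matplotlib 3.10.9.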

Additional observations from a re-analysis of the deposited data

Results flagged for a closer look

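A few members were at least 1.5-fold apart in opposite directions in 2 classes of the same comparison, with intervals that did not include 1. The differences between classes were not tested. In aged WT over young WT, the ratio of Nr4a1 was 0.560 for B cells and 1.89 for myeloid cells. GC Centroblast cells held 23 of the 43 B cell UMIs in aged WT and 49 of the 69 in young WT. In miR-146a knockout over aged WT, the ratio of Nr4a1 was 1.74 for B cells and 0.614 for myeloid cells, so both flags of Nr4a1 share the aged WT library. In the same comparison the ratio of Dusp1 was 1.59 in T cells and 0.476 in myeloid cells. With types mixed as in the library in the denominator, the log2 ratios of Nr4a1 in myeloid cells were 0.32 in aged WT over young WT and -0.11 in miR-146a knockout over aged WT, and that of Dusp1 in T cells was 0.23 in miR-146a knockout over aged WT, all inside the threshold.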

How the results depend on the processing

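Of 192 recomputed counts of members called, 162 stayed within 1.5 times the reported count and 30 did not. Of 849 recomputed log2 ratios of single members, 805 stayed within the counting interval, 43 moved outside it and 1 called ratio changed sign: Atf3 in myeloid cells of miR-146a knockout over aged WT had 0.19 with one mix of types, against -1.03. Of the 805, 110 with no minimum and 89 with a minimum of 100 UMIs could not move, as these settings leave ratios unchanged. Among the 805 and 43, a change of sign occurred 26 times, in 15 ratios that were not called. The log2 ratio of Fos in aged WT over young WT stayed between 1.90 and 2.36 for T cells, 2.07 and 2.12 for B cells and 1.45 and 1.96 for myeloid cells. The cause of each change below was not tested.

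In aged WT over young WT, the 1 B cell member called lower (Nr4a1) became 0 with a mean over cells and with cells of 1000 to 5000 UMIs. In miR-146a knockout over aged WT T cells, the 2 members called higher became 1 with a mean over cells and 0 with one mix of types or the reduced denominator, and the 1 called lower became 0 with cells of 1000 to 5000 UMIs. The 1 B cell member called higher there became 2 (Egr1 and Nr4a1) with a mean over cells, TMM scaling, cells of 1000 to 5000 UMIs and the reduced denominator. The 9 myeloid members called lower there became 4 with TMM scaling, 4 with one mix of types and 5 with a minimum of 100 UMIs. TMM factors of the myeloid sums were 0.82 (double knockout), 0.886 (miR-146a knockout), 1.153 (aged WT) and 1.193 (young WT).

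In double knockout over miR-146a knockout, T cells had 1 member lower (Fosb) with a mean over cells and with cells of 1000 to 5000 UMIs, and B cells had 1 higher (Atf3) with no minimum. The myeloid count lower became 2 (Egr1 and Dusp1) with a mean over cells, cells of 1000 to 5000 UMIs and the reduced denominator, 0 with a minimum of 100 UMIs and 3 without cells holding Hspa1a or Hspa1b, the last an alternative chosen after seeing the data. In double knockout over aged WT, the T cell count higher became 0 with a mean over cells, one mix of types and the reduced denominator, and the count lower became 2 with a mean over cells and one mix of types. B cells had 1 higher with a mean over cells (Egr1) and with no minimum (Atf3), and the myeloid count lower became 5 with one mix of types and with a minimum of 100 UMIs. No paired analysis was possible because each group has 1 library. Genes with few UMIs are limited by counting error, and no setting here covers the spread between mice.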

Other observations

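Barcodes to which the authors gave no cell type also held the members. Fos had 46.8 CPM in these barcodes of the double knockout, 59.5 CPM of the miR-146a knockout, 81.1 CPM of aged WT and 15.4 CPM of young WT. Jun had 83.6, 92.0, 123 and 35.1 CPM in the same libraries, so aged WT was highest and young WT lowest for both genes, as among annotated T and B cells for Fos. The 10 genes together summed to 623 CPM (double knockout), 695 CPM (miR-146a knockout), 807 CPM (aged WT) and 633 CPM (young WT) there.

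The 10 cells with most Fos held 35.8% of its myeloid UMIs in the double knockout, 35.2% in the miR-146a knockout, 39.8% in aged WT and 54.5% in young WT, where only 25 myeloid cells had Fos. B cell Fos was more evenly spread, with 9.5%, 15.4%, 7.59% and 24.2% of its UMIs in the top 10 cells of the same libraries.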
